A study of Mus musculus with 8 samples.

Results

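The 28 genes described here encode most of the enzymes that make cholesterol and other isoprenoids from acetyl-CoA, the SREBP transcription factors and their sterol sensors, and a few proteins that move cholesterol within or out of the cell. They were chosen by name as a list, and their Ensembl identifiers were looked up in the count table of 55421 genes. All 28 were counted, and all 28 were among the 14647 genes with enough reads to be tested. RNA came from E14 mouse embryonic stem cells, a line of 129/Ola background, in which the miR-290-295 microRNA cluster is knocked out, controls included. The cells grew in serum with the cytokine LIF on gelatin, and were transfected with a siPOOL, a pool of small interfering RNAs aimed at 1 transcript, at 5 nM for 36 h. The 4 groups were siTfap4, against the E-box factor Tfap4, siWiz, against the zinc finger protein Wiz, siZic2, against the zinc finger factor Zic2, and siNeg, the negative control siPOOL, with 2 libraries each. The design calls them biological duplicates, and nothing more is said of how the cultures were kept apart, so the p-values measure only the spread between these samples. The labels give 1 knockout line and 1 siPOOL for each target, so a difference cannot be told apart from what is particular to that line or pool. Libraries were read from the poly(A) end of transcripts, and levels are given as CPM, which divides counts by the size of each library. They depend on how each gene's transcript end was captured and are compared between groups, not between genes.

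Cells build cholesterol from acetyl-CoA through mevalonate and the isoprenoid farnesyl diphosphate, from which squalene and then the sterols are made, and the early steps also feed dolichol, ubiquinone and protein prenylation. When membranes are poor in sterol, Scap escorts the SREBP precursors from the endoplasmic reticulum to the Golgi, where they are cleaved to active transcription factors, and Insig proteins hold Scap back when sterol is plentiful. SREBP2, the product of Srebf2, mainly drives cholesterol genes, and SREBP1, the product of Srebf1, mainly drives fatty acid genes, while oxysterols switch on Abca1 and Srebf1 through the LXR receptors. Cells grown in serum can also take up cholesterol carried by lipoproteins.

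Sequencing depth was 8326675 and 8829051 counts for siTfap4, 11200948 and 10544436 for siWiz, 13788856 and 9328709 for siZic2, and 11395211 and 10795092 for siNeg, and the 28 genes together took 0.157% to 0.178% of the reads of a library. Tfap4 was at 39.4% of its siNeg level in siTfap4 (95% confidence interval 27.1% to 57.2%, edgeR adjusted p = 0.00417). Wiz was at 38% of its siNeg level in siWiz (26.5% to 54.3%, adjusted p = 0.708), and Zic2, with 17 to 54 counts in every library, was at 59.5% in siZic2 (30.3% to 117%, adjusted p = 1). The siTfap4 libraries stood apart in several general measures. Reads in them came from transcripts with a mean GC content over the last 300 bases of 43.84% and 43.32%, against 41.88% to 43.12% in the other 6 libraries. The 20 most abundant genes took 17.1% and 16.9% of their reads, against 14.1% to 14.8% in the others. Summed over 8 markers of embryonic stem cells, none of which was at 0 in every library, the level was 2340 and 2460 CPM in siTfap4, against 2840 to 3860 CPM in the other 6 libraries, and the part of this in the differences below was not tested. The 8 markers did not all lie on one side. Dppa5a was at 3.72 and 9.26 CPM in siTfap4, against 246 to 848 CPM in the other 6 libraries, and Nanog at 77.6 and 178 CPM, against 238 to 516 CPM. Pou5f1 was higher, at 57.4 and 48.1 CPM in siTfap4, against 17.6 to 27.5 CPM in the others, and Sox2 was at 898 and 904 CPM, against 682 to 861 CPM. The summed level of 7 fibroblast markers was 7.62 to 13.2 CPM in all 8 libraries, of 5 mesoderm markers 1.52 to 6.3 CPM, of 5 neural markers 74.2 to 102 CPM and of 8 trophectoderm markers 153 to 287 CPM. Single genes made up most of the last 2 sums, Tubb3 at 40.3 to 66.2 CPM and Tfap2c at 132 to 266 CPM. The summed level of 8 primitive endoderm markers was 55.1 and 36.5 CPM in siTfap4, against 21.3 to 36.6 CPM in the others. Most of this sum in siTfap4 was Lama1, at 42 and 28 CPM, against 11.2 to 23.3 CPM in the others. These markers did not all lie on one side either, and Sox17 was at 0.12 and 0.12 CPM in siTfap4, against 0.25 to 0.86 CPM. In such bulk samples, fewer cells of a type and less RNA per cell cannot be told apart.

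In siTfap4 against siNeg, Srebf1 and the cholesterol exporter Abca1 fell, and Mvd and Pmvk, which catalyse neighbouring steps of the mevalonate pathway, rose, each with an edgeR quasi-likelihood p under 0.05 after Benjamini-Hochberg adjustment over all 14647 genes, here termed a call. These were 4 of 28 members, or 14.3%, against 15.9% of all genes called in that comparison, 4.24% higher and 11.7% lower. That background rested on single libraries too, with 6 genes higher and 498 lower without the first siTfap4 library, and 55 higher and 702 lower without the first siNeg library. The share of members called was thus near the background. The median log2 fold change of the 28 genes was -0.01, and that of all genes tested 0.01. Without adjustment, 8 of the 28 members had an edgeR p under 0.05, beside 4745 of all 14647 genes. The libraries of the groups did not overlap for 7 members that were higher and 6 that were lower in siTfap4, where 59.1% of all genes did not overlap. In siWiz and siZic2 no member was called. A call was hard to reach in siWiz, where Wiz itself had the smallest edgeR p of all genes, 4.83e-05, and an adjusted p of 0.708. In siTfap4, Tfap4 had an edgeR p of 0.000106 and an adjusted p of 0.00417. The absence of calls in siWiz and siZic2 thus does not show that the members were unchanged there. The 4 genes called in siTfap4 are described first.

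**Figure D1:**
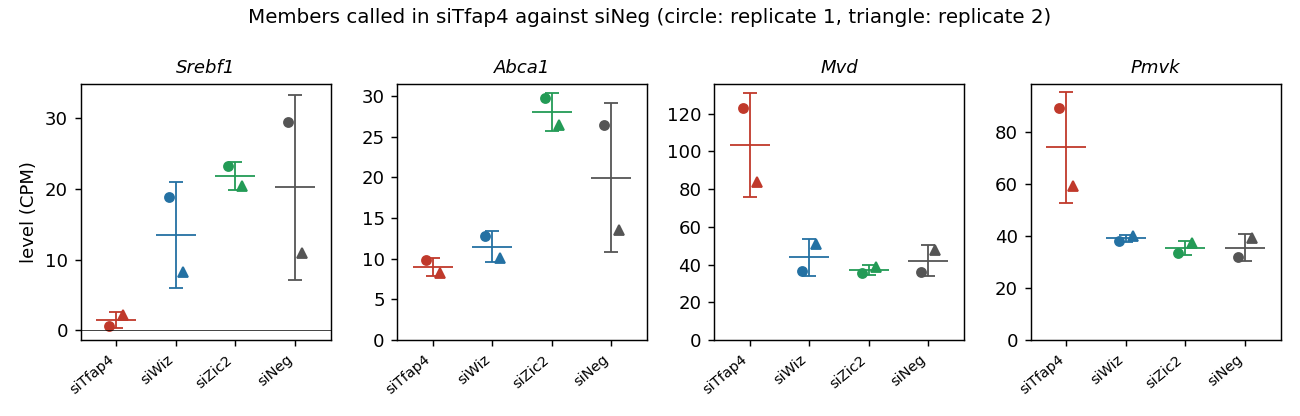
Level of each of the 4 called genes in CPM (vertical axis, starting at or just below 0) in each library of the siTfap4, siWiz, siZic2 and siNeg groups. Circles and triangles are the libraries numbered 1 and 2, horizontal lines the group means and bars 1 SD. Srebf1 lies at 0.62 and 2.23 CPM in siTfap4, below all 6 other libraries, and Mvd and Pmvk lie above all 6 in siTfap4.

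Srebf1 (ENSMUSG00000020538; GRCm38 chromosome 11, 60199089 to 60222581, minus strand) had the largest fold change of the 28 genes in either direction. It had 5 and 19 counts in the siTfap4 libraries, against 354 and 114 counts in the siNeg libraries. On the CPM scale this was 0.62 and 2.23 in siTfap4, 18.8 and 8.21 with siWiz, 23.2 and 20.4 with siZic2, and 29.4 and 11 with siNeg. The siTfap4 libraries were below every other library, while the siWiz and siNeg libraries overlapped and each held one library more than 2-fold above its partner. The log2 fold change was -3.80 in siTfap4 over siNeg (SE 0.60, adjusted p = 0.0017), a level 14-fold lower, or 7.16% of the control (95% interval 2.92% to 17.5%). Set directly against siWiz the log2 fold change was -3.22 (SE 0.60, adjusted p = 0.00488), and against siZic2 it was -3.91 (SE 0.60, adjusted p = 0.000975). The call against siNeg was kept in all 17 alternative analyses, between -5.02 and -2.90. It was -3.19 without the first siTfap4 library and -2.90 without the first siNeg library.

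Exons of Srebf1 overlap those of Rai1 on the opposite strand and of the microRNA gene Mir6922 on the same strand, and whether counting used the strand is not given in the sources used here. Rai1 had 11 and 11 CPM in siTfap4, against 16.8 and 15.8 CPM in siNeg, a log2 fold change of -0.56 that was not called (adjusted p = 0.142). Srebf1 has several start sites, from which the SREBP1 forms known as 1a and 1c arise, and reads at the transcript end do not tell them apart. RefSeq's windows of 250 bases before to 50 bases after an annotated start (GRCm38.p6) cover 3 starts, at chr11:60222532-60222831, chr11:60220578-60220877 and chr11:60210422-60210721, all on the minus strand. They are shown 5′ to 3′ because Srebf1 carried the largest difference, with capitals for the sterol element core CACCCCAC, its looser form TCACNCCAC, the NF-Y box CCAAT, and the E-boxes CACGTG and CAGCTG, on either strand.
Srebf1 start 1: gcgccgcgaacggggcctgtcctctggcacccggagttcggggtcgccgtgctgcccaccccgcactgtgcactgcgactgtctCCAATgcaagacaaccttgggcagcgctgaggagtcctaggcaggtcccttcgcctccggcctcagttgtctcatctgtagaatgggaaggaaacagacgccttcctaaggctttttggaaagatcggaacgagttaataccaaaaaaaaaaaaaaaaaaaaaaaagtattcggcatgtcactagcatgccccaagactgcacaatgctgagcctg
Srebf1 start 2: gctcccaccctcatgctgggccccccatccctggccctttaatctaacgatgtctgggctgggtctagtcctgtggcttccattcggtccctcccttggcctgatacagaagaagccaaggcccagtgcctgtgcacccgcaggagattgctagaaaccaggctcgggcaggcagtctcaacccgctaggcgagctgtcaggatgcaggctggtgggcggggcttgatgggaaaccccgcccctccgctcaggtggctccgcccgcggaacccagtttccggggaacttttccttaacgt
Srebf1 start 3: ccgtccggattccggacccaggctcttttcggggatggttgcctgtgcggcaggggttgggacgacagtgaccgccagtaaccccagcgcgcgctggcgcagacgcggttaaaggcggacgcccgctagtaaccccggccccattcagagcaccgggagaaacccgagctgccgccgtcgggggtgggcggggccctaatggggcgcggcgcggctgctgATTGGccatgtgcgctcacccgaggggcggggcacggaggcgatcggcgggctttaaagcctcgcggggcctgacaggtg
The first and the third window hold 1 CCAAT each. CAGCTG, the described binding site of Tfap4, is in none of the 3, and neither is CACGTG nor either form of the sterol element.

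Abca1 (chromosome 4, 53030787 to 53159895, minus strand), which loads cholesterol onto apolipoproteins outside the cell, had 9.8 and 8.21 CPM in siTfap4, 12.8 and 10.1 with siWiz, 29.7 and 26.4 with siZic2, and 26.4 and 13.5 with siNeg. The siTfap4 libraries were the lowest pair, the siWiz libraries were also below both controls, and the siZic2 libraries were at or above the higher control. In siTfap4 over siNeg the log2 fold change was -1.15 (SE 0.33, adjusted p = 0.031), or 45% of the control (95% interval 27.7% to 73.1%). This call rested on single libraries. The adjusted p was 0.327 without the first siNeg library, where the log2 fold change was -0.57, 0.11 without the first siTfap4 library, 0.0813 without the second, and 0.0519 and 0.0515 without the first and the second siZic2 library. Abca1 was also lower in siTfap4 set directly against siZic2 (log2 fold change -1.64, SE 0.33, adjusted p = 0.00427). Against siWiz the difference was -0.35 (95% interval -1.06 to 0.35, adjusted p = 0.495). The window at its start, chr4:53159846-53160145 on the minus strand, holds 1 CACGTG, in capitals, and 2 copies of the Sp1 box GGGCGG, left in lower case.
Abca1 start: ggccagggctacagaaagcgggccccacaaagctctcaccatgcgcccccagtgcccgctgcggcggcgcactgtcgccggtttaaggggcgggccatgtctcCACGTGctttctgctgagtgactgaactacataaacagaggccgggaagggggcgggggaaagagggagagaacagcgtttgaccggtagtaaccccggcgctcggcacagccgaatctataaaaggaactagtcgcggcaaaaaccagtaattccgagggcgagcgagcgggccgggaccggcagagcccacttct

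Mvd (chromosome 8, 122433601 to 122443422, minus strand) encodes the decarboxylase that makes isopentenyl diphosphate. It had 123 and 83.8 CPM in siTfap4, 36.8 and 50.8 with siWiz, 35.3 and 38.9 with siZic2, and 36.2 and 47.8 with siNeg. Every siTfap4 library was above every other library. The log2 fold change in siTfap4 over siNeg was 1.30 (SE 0.27, adjusted p = 0.00729), a level 2.47-fold higher (95% interval 1.65 to 3.68). Mvd was also higher in siTfap4 than in siWiz (log2 fold change 1.24, adjusted p = 0.01) and in siZic2 (1.48, adjusted p = 0.00265).

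Pmvk (chromosome 3, 89454541 to 89469013, plus strand) encodes phosphomevalonate kinase, which makes the substrate of Mvd. It had 89.3 and 59.2 CPM in siTfap4, 38.3 and 40.1 with siWiz, 33.6 and 37.3 with siZic2, and 32 and 39.2 with siNeg, so that the siTfap4 libraries again lay above the other 6. In siTfap4 over siNeg the log2 fold change was 1.06 (SE 0.25, adjusted p = 0.0151), a level 2.09-fold higher (95% interval 1.43 to 3.04). The differences from siWiz (0.92, adjusted p = 0.028) and from siZic2 (1.07, adjusted p = 0.0106) were called as well.

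In Mvd and Pmvk the first siTfap4 library was the higher of the pair, and neither call held without it. The log2 fold change of Mvd was then 0.99 (adjusted p = 0.0733) and that of Pmvk 0.73 (adjusted p = 0.152). Without the first siNeg library they were 1.14 (adjusted p = 0.0678) and 0.94 (adjusted p = 0.109). The promoter windows of Mvd at chr8:122443373-122443672 on the minus strand and of Pmvk at chr3:89454291-89454590 and chr3:89459321-89459620 on the plus strand are shown as those of the members that rose, with the window of Hmgcs1 at chr13:119690101-119690400 on the plus strand as the one of the 23 members with a RefSeq window that holds both forms of the sterol element.
Mvd start: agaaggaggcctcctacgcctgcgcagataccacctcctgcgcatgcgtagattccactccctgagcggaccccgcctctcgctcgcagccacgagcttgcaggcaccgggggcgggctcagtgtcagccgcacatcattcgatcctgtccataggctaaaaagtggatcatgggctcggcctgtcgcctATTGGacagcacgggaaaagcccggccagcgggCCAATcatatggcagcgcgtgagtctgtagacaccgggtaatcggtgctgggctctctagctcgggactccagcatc
Pmvk start 1: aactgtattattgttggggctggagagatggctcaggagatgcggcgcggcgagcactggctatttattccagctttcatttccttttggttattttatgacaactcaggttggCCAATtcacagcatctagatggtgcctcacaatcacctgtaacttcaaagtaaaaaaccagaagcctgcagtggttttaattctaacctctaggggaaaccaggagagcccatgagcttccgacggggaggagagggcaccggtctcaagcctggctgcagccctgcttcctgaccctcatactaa
Pmvk start 2: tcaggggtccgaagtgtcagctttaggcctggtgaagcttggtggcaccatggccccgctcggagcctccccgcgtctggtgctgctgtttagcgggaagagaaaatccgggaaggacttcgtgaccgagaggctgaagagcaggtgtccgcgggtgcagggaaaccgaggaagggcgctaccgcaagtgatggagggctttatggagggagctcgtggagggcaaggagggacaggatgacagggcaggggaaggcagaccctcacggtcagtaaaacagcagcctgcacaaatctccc
Hmgcs1 start: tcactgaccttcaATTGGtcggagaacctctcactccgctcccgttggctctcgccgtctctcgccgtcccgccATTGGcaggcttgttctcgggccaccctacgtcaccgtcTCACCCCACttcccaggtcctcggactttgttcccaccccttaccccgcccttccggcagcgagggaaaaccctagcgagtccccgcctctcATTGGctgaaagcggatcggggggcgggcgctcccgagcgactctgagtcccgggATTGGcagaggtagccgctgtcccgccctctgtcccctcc
Mvd has 2 CCAAT boxes, the first window of Pmvk has 1, and the Hmgcs1 window has 4 beside the sterol element. Neither of the 2 searched forms of the sterol element and neither of the named E-boxes is in the windows of the genes that rose. Other forms of the sterol element were not searched for.

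Across the 31 windows of those 23 members, CCAAT was in 67.7% of windows, against 37.4% of all 32851 windows and 38% of the 13130 windows of tested genes. GGGCGG was in 80.6% of the members' windows, 35.7% of all windows and 62% of those of tested genes. CACGTG was in 22.6%, against 7.15% and 9.87%. CAGCTG was in 12.9%, against 16.3% and 15.5%, and the members with it were Idi1, Msmo1, Dhcr7 and Insig2, none of which was called. Any E-box, CANNTG, which includes the last 2 motifs, was in 87.1%, against 72.3% and 64.1%. The sterol element core CACCCCAC was in the windows of Acat2 and Hmgcs1, 6.45% of the members' windows against 2.87% and 3.08%, and TCACNCCAC, which overlaps it, was in that of Hmgcs1, 3.23% against 1.24% and 1.17%. Some of these windows overlap one another, as those of Scap do. A match is a run of letters in a window and not a measured binding site.

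**Figure D2:**
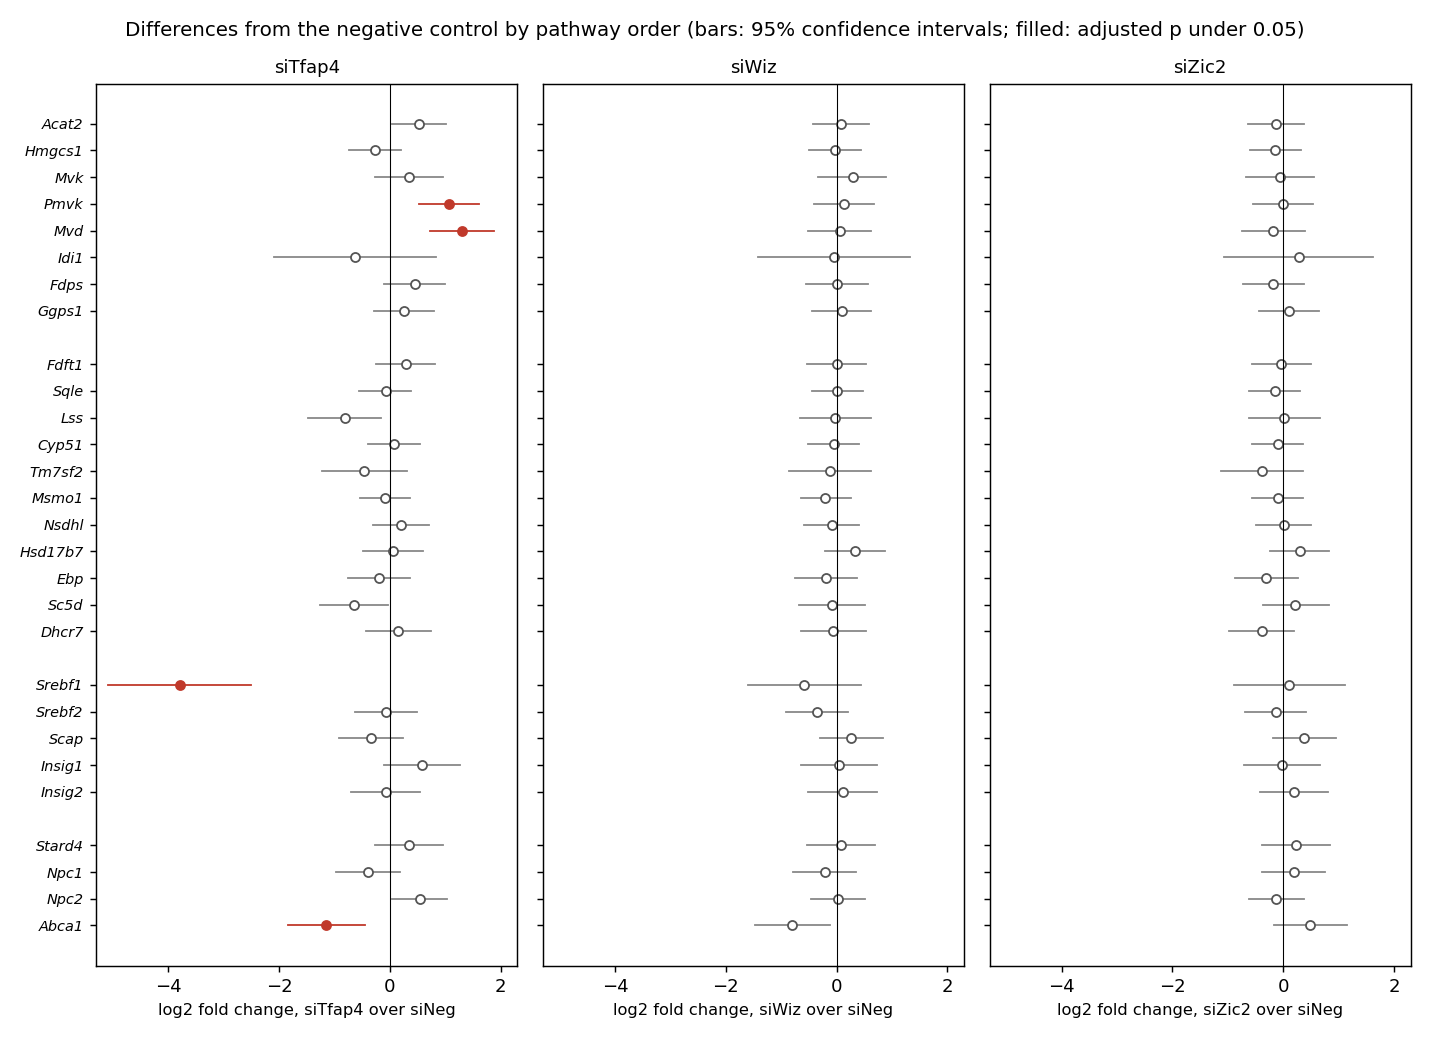
Log2 fold change of each of the 28 genes over siNeg (horizontal axis) in siTfap4, siWiz and siZic2, in pathway order from top to bottom with gaps between the mevalonate steps, the sterol steps, SREBP regulation and cholesterol movement. Bars are 95% confidence intervals and filled red points are calls, which are Pmvk, Mvd, Srebf1 and Abca1 in siTfap4 and none in siWiz or siZic2.

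Along the mevalonate and isoprenoid steps in siTfap4, 2 of 8 genes rose and none fell, beside 4.24% of all genes higher and 11.7% lower. Their median log2 fold change was 0.40, against 0.01 over all genes tested. Of the 8, 6 were above 0, as were 7415 of all 14647 genes. Acat2, the cytosolic thiolase at the entry of the pathway, had 142 and 137 CPM in siTfap4, 87 and 118 with siWiz, 85.2 and 91.9 with siZic2, and 87 and 107 with siNeg. Its siTfap4 libraries were above the other 6, and its log2 fold change over siNeg of 0.53 was not called (adjusted p = 0.137). Acat2 shares a near-identical transcript end with Acat3, so its reads could be split between them. Hmgcs1, the synthase that makes HMG-CoA, had 275 and 301 CPM in siTfap4, against 335 and 359 CPM in siNeg (log2 fold change -0.27, adjusted p = 0.42). Mvk, which phosphorylates mevalonate just before Pmvk acts, had 25.3 and 26.3 CPM in siTfap4, against 14.7 and 25.9 CPM in siNeg, and did not differ beyond the spread between libraries (0.35, adjusted p = 0.429).

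Downstream of Mvd, the isomerase gene Idi1 had only 4 to 39 counts in any library, and its log2 fold change of -0.63 in siTfap4 had a 95% interval from -2.10 to 0.83. Fdps, which makes farnesyl diphosphate, had 22.8 and 19.9 CPM in siTfap4, against 17.5 and 13.6 CPM in siNeg. The siTfap4 libraries of Fdps were the higher ones, and the log2 fold change of 0.45 was not called (adjusted p = 0.24). Ggps1, which extends the chain to geranylgeranyl diphosphate, had 56.3 and 45.1 CPM in siTfap4, against 51 and 33.6 CPM in siNeg, and the groups overlapped (0.26, adjusted p = 0.5). Transcript ends near-identical to those of Idi1, Fdps and Ggps1 were found in 2, 6 and 1 other genes, so the values of these 3 are uncertain.

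Of the 11 sterol steps from squalene on, none was called in siTfap4 by the main edgeR fit or by DESeq2, beside 15.9% of all genes by edgeR. Of the 11, 2 had an unadjusted edgeR p under 0.05, as had 4745 of all 14647 genes. The median log2 fold change of the 11 was -0.08, with values from -0.82 to 0.29. Lss, which folds squalene epoxide into lanosterol, had the lowest of these, with 15.4 and 10.8 CPM in siTfap4, 27.2 and 18.3 with siWiz, 24.9 and 21.9 with siZic2, and 27.8 and 18.3 with siNeg. Both siTfap4 libraries of Lss were below the other 6, with a log2 fold change of -0.82 (SE 0.31) and an edgeR adjusted p of 0.0835. With the replicate number as a block, which the main fit did not use, Lss was called (-0.81, edgeR adjusted p = 0.029). Without the second siNeg library Lss was called, with a log2 fold change of -1.10 and an adjusted p of 0.0489. Sc5d, a desaturase near the end of the pathway, had 11.8 and 16.2 CPM in siTfap4, 24.2 and 17.4 with siWiz, 24.7 and 26.8 with siZic2, and 25.6 and 18.4 with siNeg. It too was lower in both siTfap4 libraries than in the other 6. Its log2 fold change was -0.65 over siNeg (adjusted p = 0.133) and -0.88 over siZic2 (adjusted p = 0.0411, a call). The end of Sc5d is near-identical to that of 1 other gene model.

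The other sterol enzymes had an unadjusted p above 0.05. Fdft1, which makes squalene, had 65.6 and 57.4 CPM in siTfap4, against 39.6 and 61.2 CPM in siNeg. Sqle, which oxidises it and is a classical SREBP2 target, had 100 and 120 CPM, against 113 and 121 CPM in siNeg, and its 8 libraries spanned only 1.21-fold. Cyp51 and Msmo1, which strip methyl groups from lanosterol, had log2 fold changes of 0.08 and -0.09 in siTfap4, with 95% intervals of -0.39 to 0.54 and -0.54 to 0.37. For Msmo1 the 8 libraries lay between 117 and 138 CPM. Nsdhl (0.20) and Hsd17b7 (0.06), which act with Msmo1, the isomerase Ebp (-0.20), the reductase Tm7sf2 (-0.46) and Dhcr7 (0.15), which makes cholesterol from its last precursor in one branch, all had overlapping siTfap4 and siNeg libraries. Tm7sf2 had 4.84 and 8.09 CPM in siTfap4, against 8.06 and 9.8 CPM in siNeg, and Dhcr7 had 26.9 and 18.6 CPM, against 20.5 and 20.4 CPM in siNeg.

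Within SREBP regulation, Srebf1 was the only one of 5 genes called, beside 15.9% of all genes, and the median log2 fold change was -0.08. Srebf2 had 102 and 77.4 CPM in siTfap4, 75.1 and 72.6 with siWiz, 81.4 and 91.1 with siZic2, and 116 and 72.8 with siNeg. The siTfap4 values of Srebf2 lay within the control range, and the log2 fold change of -0.08 had a 95% interval from -0.63 to 0.48, which excludes a change of the size seen for Srebf1. Scap had 19.2 and 32.7 CPM in siTfap4, against 32.2 and 33.9 CPM in siNeg, and was not called (-0.35, adjusted p = 0.391). Insig1, which SREBPs themselves induce, had 20.2 and 13.6 CPM in siTfap4, against 13.6 and 9.03 CPM in siNeg. Its lower siTfap4 library and higher siNeg library were close together, and the log2 fold change of 0.58 was not called (adjusted p = 0.233). Insig2, its close relative, had 15.5 and 11 CPM in siTfap4, against 15.3 and 12.8 CPM in siNeg (-0.08, adjusted p = 0.869).

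Of the 4 genes of cholesterol movement, Abca1 was the one called, beside 15.9% of all genes, and the median was -0.02. Npc2, which hands cholesterol to Npc1 inside lysosomes, had 287 and 262 CPM in siTfap4, 182 and 205 with siWiz, 170 and 177 with siZic2, and 160 and 219 with siNeg. Its siTfap4 libraries were the highest of the 8, with a log2 fold change of 0.54 over siNeg (adjusted p = 0.126). Npc1, which passes cholesterol out through the lysosomal membrane, had 26.5 and 28 CPM in siTfap4, against 43.1 and 28.3 CPM in siNeg (-0.39, adjusted p = 0.336). Stard4, a carrier of sterol in the cytosol, had 63.2 and 46.5 CPM in siTfap4, against 53.9 and 32.6 CPM in siNeg (0.34, adjusted p = 0.433).

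**Figure D3:**
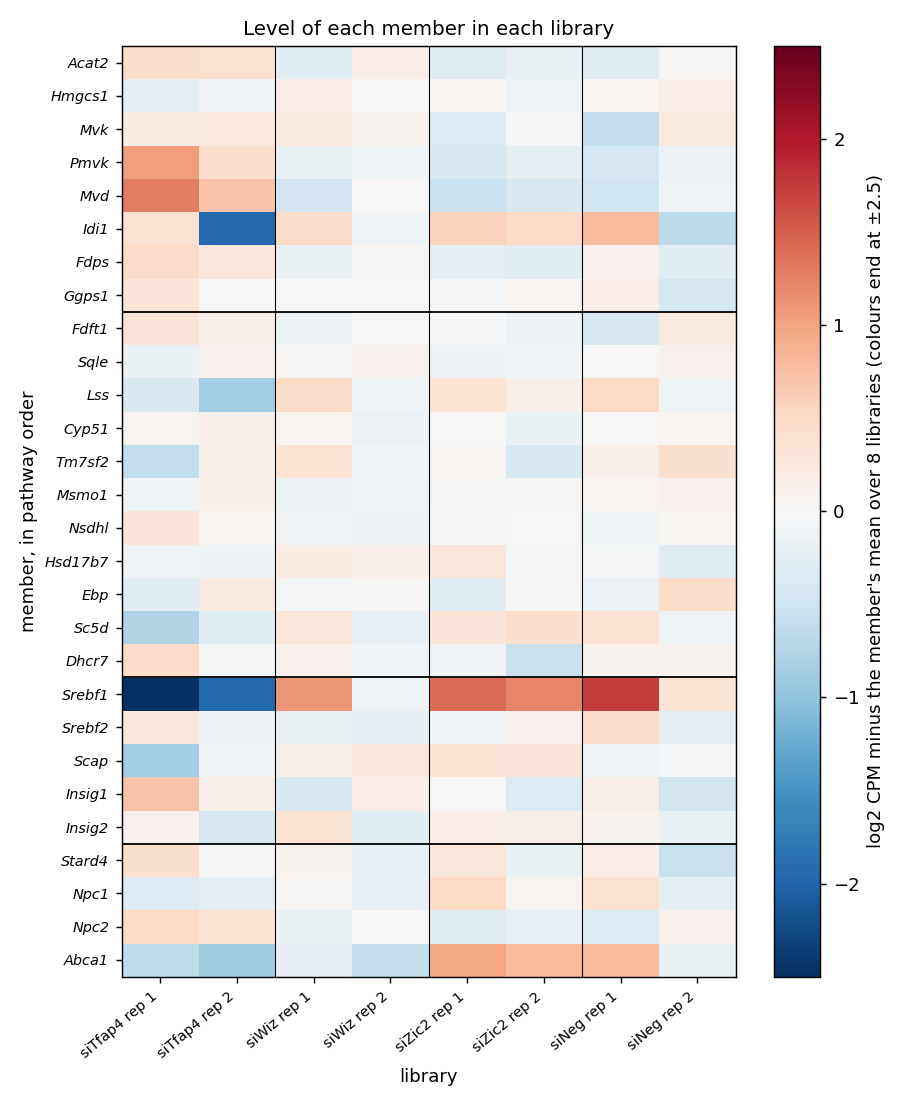
Level of each of the 28 genes (rows, in pathway order with lines between the 4 role groups) in each of the 8 libraries (columns, from siTfap4 to siNeg), as log2 CPM minus the gene's mean over the 8 libraries. Colours end at ±2.5 and the first siTfap4 library of Srebf1 lies past that end. Most rows are pale, with Srebf1 low and Mvd and Pmvk high in the siTfap4 columns. Abca1 is less far below its mean there, and Idi1 is low in the second siTfap4 library, at 0.469 CPM from 4 counts.

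The difference of siTfap4 from siNeg moved with the GC content of the transcript end. Among all genes with a known end, the median log2 fold change was -0.29 in the lowest of 10 bins of GC content and 0.54 in the highest, where 11.4% of genes were called higher. Mvd (58.7% GC) and Pmvk (54.3% GC) were in the highest bin, as was Mvk (57%). Abca1 (33.3% GC) was in the bin next to the lowest, which had a median of -0.26. Srebf1 (45.7% GC) was in a bin with a median of 0.15, opposite in sign to its own change. With every library corrected for GC content and transcript length, Mvd remained higher in siTfap4 at 0.80 (adjusted p = 0.0209) and Pmvk at 0.70 (adjusted p = 0.0457), both smaller than without the correction. Abca1 was then at -0.94 (adjusted p = 0.024) and Srebf1 at -3.85 (adjusted p = 0.00185), and Acat2 was called as higher (0.67, adjusted p = 0.044).

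**Figure D4:**
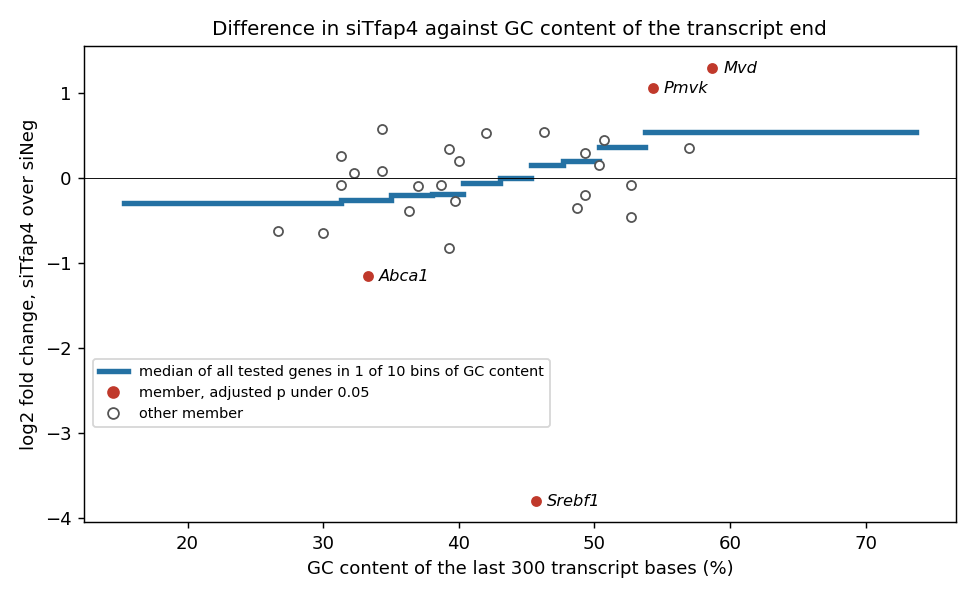
Log2 fold change of siTfap4 over siNeg (vertical axis) against the GC content of the last 300 bases of the transcript (horizontal axis, in percent) for the 28 genes. Blue lines are the medians of all tested genes with a known end in each of 10 bins of GC content, from -0.29 at the lowest to 0.54 at the highest. Filled red points are calls: Mvd and Pmvk lie above the line of the highest bin, and Srebf1 and Abca1 lie far below the lines of theirs.

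In siWiz against siNeg none of the 28 genes was called, as was the case for all 14647 genes (0% called by edgeR, 1 gene called by DESeq2, 266 genes with an unadjusted p under 0.05). The members' log2 fold changes ran from -0.80 to 0.34, with a median of -0.01. Abca1 was the only member with an unadjusted p under 0.05 (edgeR adjusted p = 1), and its log2 fold change was -0.80 (95% interval -1.48 to -0.12). Srebf1 was at -0.58 with overlapping libraries, and Hsd17b7 at 0.34 and Scap at 0.27 were higher in both siWiz libraries than in both siNeg libraries. In all, 2 members were higher and 2 lower in siWiz with no overlap between the groups, where 25.1% of all genes did not overlap.

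In siZic2 against siNeg the result was again 0 of 28 members called, beside 0% of all genes by edgeR, 86 genes at an unadjusted p under 0.05 and 0 genes by DESeq2. Log2 fold changes of the members ran from -0.39 for Tm7sf2 to 0.49 for Abca1, with a median of -0.02, and no member had an unadjusted p under 0.05. Without overlap between the groups, 4 members were higher and 5 lower in siZic2, where 23.8% of all genes did not overlap. The 5 that were lower were the mevalonate enzyme Hmgcs1 and the sterol enzymes Sqle, Msmo1, Tm7sf2 and Dhcr7, with log2 fold changes between -0.39 and -0.10. The 4 that were higher were another sterol enzyme, Hsd17b7 (0.30), the SREBP escort Scap (0.38), its retainer Insig2 (0.20) and Abca1 (0.49). All 9 differences were less than 2 SE.

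The 3 comparisons with siNeg share its 2 libraries, so their values are not independent, and the siPOOLs were also set against each other. In siTfap4 against siWiz, 3 of 28 members were called, beside 15.1% of all genes, with Mvd and Pmvk higher (4.66% of all genes) and Srebf1 lower (10.4% of all genes). In siTfap4 against siZic2, 5 members were called, beside 23.1% of all genes, with Mvd and Pmvk higher (8.41% of all genes) and Srebf1, Abca1 and Sc5d lower (14.7% of all genes). Without the first siTfap4 library, 0 members were called against siWiz, Srebf1 included, and 3 against siZic2. Without the first siWiz library 1 was called against siWiz, and without either siZic2 library 3 were called against siZic2. In siWiz against siZic2 none was called, beside 0% of all genes by edgeR, 384 genes at an unadjusted p under 0.05 and 0 genes by DESeq2. Abca1, at 12.8 and 10.1 CPM in siWiz, against 29.7 and 26.4 CPM in siZic2, was rank 3 of all genes there by p (log2 fold change -1.29, SE 0.32, edgeR adjusted p = 1). Its siWiz and siZic2 libraries were well apart, and it was called only when genes were not filtered on low counts.

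Beyond the 28 genes, 6 further lists of the same biology were counted in siTfap4 against siNeg. Of 14 tested fatty acid genes, most of them described targets of SREBP1, 6 fell and none rose, and their median log2 fold change was -0.49, against 0.01 over all genes, of which 11.7% fell. Scd2, a stearoyl-CoA desaturase, had 70.1 and 118 CPM in siTfap4, against 291 and 250 CPM in siNeg (log2 fold change -1.52, SE 0.30, adjusted p = 0.00542). Elovl6, which lengthens saturated fatty acids, had 73.4 and 110 CPM in siTfap4, against 234 and 196 CPM in siNeg (-1.23, SE 0.25, adjusted p = 0.0073). Fads2, a desaturase of polyunsaturated fatty acids, had 27.8 and 30.5 CPM in siTfap4, against 77.1 and 54 CPM in siNeg (-1.17, SE 0.27, adjusted p = 0.0134). For these 3 genes no siTfap4 library reached the lowest control. Mid1ip1, which activates acetyl-CoA carboxylase, had 21.9 and 56 CPM in siTfap4, against 98.1 and 101 CPM in siNeg (-1.35, SE 0.33, adjusted p = 0.0171). Of the 14 genes, 10 had a log2 fold change below 0 and 4 had one above 0, none of these 4 called. Fasn, fatty acid synthase, the highest of the 4, was singled out after its values were seen, since it lay on the other side. It had 635 and 357 CPM in siTfap4, against 244 and 298 CPM in siNeg, and was not called (0.87, adjusted p = 0.057). The count that fell was also 6 after the GC and length correction, where 1 gene rose, and it was 0 without the first siTfap4 library and 2 without the first siNeg library. One gene rose by DESeq2 as well, and with either other filter on low counts, and 2 rose without the second siTfap4 library. In siWiz and siZic2 none of the 14 was called.

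**Figure D5:**
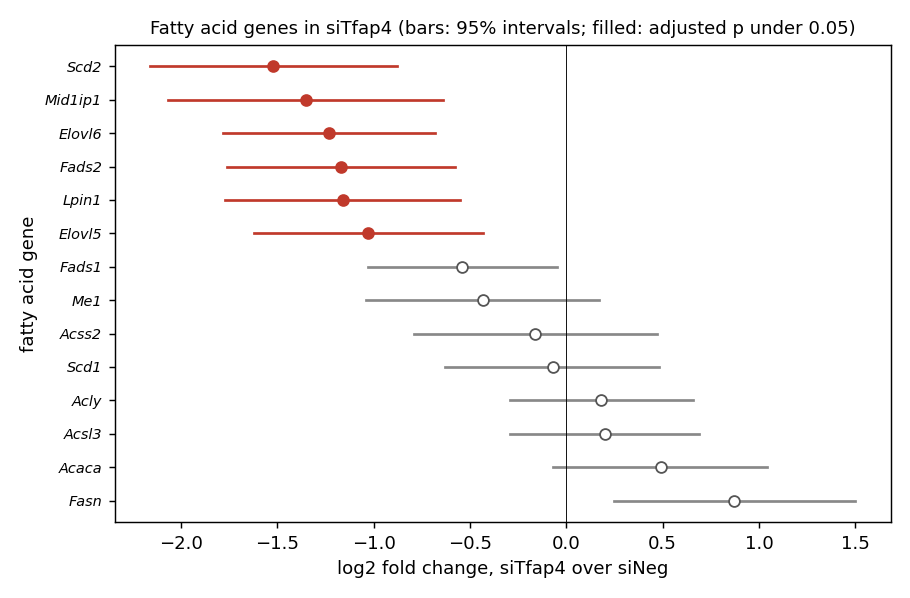
Log2 fold change of siTfap4 over siNeg (horizontal axis) for the 14 tested fatty acid genes (rows, from lowest to highest). Bars are 95% confidence intervals and filled red points are calls. The 6 called genes lie between -1.52 and -1.03, and Fasn, at 0.87, is the highest and not called.

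Of 12 genes for SREBP processing and sterol-regulated degradation, 4 fell and 1 rose in siTfap4, beside 11.7% of all genes lower and 4.24% higher, and their median log2 fold change was -0.46, against 0.01 over all genes. With the GC and length correction 3 fell and 1 rose. Erlin1, a membrane protein of the endoplasmic reticulum, was at 2.98 and 2.81 CPM in siTfap4, against 11.6 and 9.71 CPM in siNeg (log2 fold change -1.87, SE 0.38, adjusted p = 0.00705). Sec23a, part of the coat of vesicles that leave the endoplasmic reticulum, was at 20.5 and 33.6 CPM, against 55.3 and 57.9 CPM in siNeg (-1.06, SE 0.28, adjusted p = 0.0238). In these genes both siTfap4 libraries lay below both controls. Usp20, a deubiquitinase, rose to 24.4 and 11.7 CPM, against 6.9 and 8.84 CPM in siNeg (1.20, SE 0.37, adjusted p = 0.0433). The rise of Usp20 rested on its first siTfap4 library, without which the log2 fold change was 0.57 (adjusted p = 0.452). Its call was also lost without the first or second siNeg library (adjusted p = 0.211 and 0.0737), without the first or second siZic2 library (0.0534 and 0.0525), and when libraries were scaled by their totals alone (0.0567). Without the first siTfap4 library none of the 12 genes was called, without the first siNeg library 1 was, and without the second 2 were, all of them lower. In the LXR and efflux list, 1 of 6 genes fell, or 16.7%, near the 11.7% of all genes that fell. It was the efflux transporter Abcg1, with 2.98 and 5.04 CPM in siTfap4, against 19.9 and 6.82 CPM in siNeg (-1.73, SE 0.49, adjusted p = 0.0305). Without the first siTfap4 library the log2 fold change of Abcg1 was -1.42 (adjusted p = 0.22), and without the first siNeg library it was -0.74 (adjusted p = 0.373). Among 11 genes that use isoprenoids, Nus1, a subunit of the enzyme that makes dolichol, fell to 8.93 and 15.8 CPM in siTfap4, against 58.7 and 44.1 CPM in siNeg (-2.05, SE 0.33, adjusted p = 0.00183). The other 10 were not called, so that 9.09% of this list was called, beside 15.9% of all genes. None of 15 genes for sterol trafficking and esterification and none of 4 tested ketone and acetyl-CoA genes was called by edgeR, beside the same 15.9%. Both lists had 0 calls by DESeq2 and 0 genes whose unadjusted edgeR p was under 0.05. Every one of the 6 lists had 0 genes called by edgeR in siWiz and 0 in siZic2, and 0 at an unadjusted p under 0.05 in either.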

How the data were processed

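The authors deposited whole, unnormalized read counts, 1 row per Ensembl identifier and 1 column per library, made with the QuantSeq 3' FWD kit from 500 ng of RNA, per the labels' protocols. Per the submitters' processing notes, reads were trimmed with Trim Galore and the build was GRCm38; no aligner, counting program, strand setting or deduplication is given in the sources used here, so overlapping genes on opposite strands may share reads. Columns were mapped to samples by name, with 0 left unmapped, and 55154 of 55421 identifiers matched a symbol. Within each group the libraries differed beyond sampling noise (chi-square over its degrees of freedom, 17.7 to 37.7).

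Genes were filtered with filterByExpr, scaled by TMM and fitted with edgeR 4.0.16 (quasi-likelihood, R 4.3.3, limma 3.58.1), all 8 libraries in 1 fit with 1 mean per group and no block. The biological coefficient of variation was 22.2%. P-values were two-sided and adjusted over all genes in each of 6 comparisons. CPM use TMM-scaled library sizes. Near-identical ends share at least 90% identity over 150 bases. The scripts were checked on simulated counts. The members, lists, motifs, naming rule and tests were chosen with earlier results of these data known. All members were named, and of each further list at most the 4 called genes with the smallest p. One gene named by that rule is not reported here. Alternatives included DESeq2 1.42.0, other scaling and filters, the replicate block and each library left out. Correcting GC content and transcript length, and a fit without siTfap4, were added after seeing the data. Positions come from GENCODE M21 and promoters from RefSeq.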

Additional observations from a re-analysis of the deposited data

How the results depend on the processing

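Of 84 results for single members against siNeg, 78 kept their side of the threshold in every alternative, and 6 did not: Acat2, Pmvk, Mvd, Lss, Insig1 and Abca1 in siTfap4. Lss was called with the replicate block (-0.81, adjusted p = 0.029) and without the second siNeg library (-1.10, adjusted p = 0.0489), and Insig1 with the GC and length correction and the block together (0.92, adjusted p = 0.0491). The number of members called in siTfap4 against siNeg was 4, and 4 to 6 in the alternatives that did not leave out a single library. With 1 library left out at a time it was 1 to 5. Against siWiz, where 3 were called, it was 0 to 4 with 1 library left out and 5 with the GC and length correction and the block. Against siZic2, where 5 were called, it was 3 to 7 with 1 library left out, 8 by DESeq2, 9 with the block and 10 with the correction and the block. In siWiz against siZic2, 1 member was called with no filter on low counts, beside 23 of 26969 genes. Calls over all genes in siTfap4 moved too. Against siZic2 they were 3485 of 13142 by DESeq2, 4391 of 14647 with the block and 4155 of 14638 with the correction and the block. Against siWiz they were 3144 of 14638 with the correction and the block. Against siNeg they were 1699 to 3247 in the alternatives that did not leave out a single library. The cause of these changes was not tested, and the fits with 1 library left out also had fewer samples.

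Over all genes, 2330 were called in siTfap4 against siNeg, 504 without the first siTfap4 library and 757 without the first siNeg library. Against siWiz, 2207 were called, 401 and 407 without the first siTfap4 or siWiz library, and 1411 with these groups fitted alone. Against siZic2, 3379 were called, 905 without the first siTfap4 library, and 1288 and 1264 without the first and second siZic2 library. With no filter, 12 genes were called in siWiz against siNeg and 23 in siWiz against siZic2. Of the genes called in siTfap4 against siNeg, 26.7% were higher, against 39.7% with the correction and the block, 35.1% with the correction alone, 15.7% with these groups fitted alone, 18.5% and 18.6% without the first and second siZic2 library, 7.27% without the first siNeg library and 1.19% without the first siTfap4 library. Against siWiz these shares were 30.9% and 41.2%.

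Libraries with the same replicate number did not all deviate together (correlations of -0.04 to 0.33 between groups), so the numbers were not taken as pairs. The block gave 5 members called in siTfap4 against siNeg, beside 3243 of all 14647 genes, and 4 against siWiz, beside 3056. In siWiz and siZic2 against siNeg it gave 0 members, beside 0 of all genes. Leaving out a library assumes that the one left in that group varies as much as the rest. Idi1, with at most 39 counts in a library, was too shallow to show small changes.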
